A study of Oryza sativa Japonica Group with 6 samples.

Results

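The enzymes of the Calvin cycle and of photorespiration were followed in shoots of rice seedlings held for 24 h at 11, 13 or 25 °C. Members were the loci written with a LOC_Os identifier whose description in the authors' table names 1 of these enzymes and whose level reached an RPKM (reads scaled to gene length and to the library's total) of 1 in at least 2 libraries. The words matched 67 loci, and 57 of them passed this filter, out of 19438 loci tested and 55800 in the table. The words also catch enzymes that share a substrate name, so the members were sorted by their descriptions into 10 chloroplast enzymes of the Calvin cycle (of 13 matches), 21 enzymes and transporters of photorespiration (of 23 matches) and 26 other enzymes (of 31 matches). At the edge of the filter, the highest match left out was LOC_Os06g45710, whose second highest library had 0.821 RPKM, and the lowest member was LOC_Os11g04320 at 1.11 RPKM.

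The plants were seedlings of the japonica cultivar Lijiangxintuanheigu, 2 weeks old, and RNA came from their above-ground part, stems and leaves together. All 3 groups were of this 1 cultivar, and they differed in the labels by temperature: 11 °C, 13 °C, or 25 °C, taken here as the reference. Each temperature had 2 biological replicates according to the series design, which makes 6 libraries. The number of plants in a library and the time of day of collection are not stated in what was used here.

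The Calvin cycle fixes carbon dioxide on ribulose bisphosphate, reduces the resulting phosphoglycerate to triose phosphate, and rebuilds ribulose bisphosphate from most of that product. When Rubisco takes oxygen in place of carbon dioxide it makes phosphoglycolate, and photorespiration returns its carbon through chloroplast, peroxisome and mitochondrion to the cycle as glycerate. Both pathways run in green leaf cells, in the light, and plants that lack a step of photorespiration usually grow poorly in ordinary air.

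Each library held an estimated 15.96 to 18.72 M reads, so that 1 read on a gene of 1 kb would equal 0.0534 to 0.0626 RPKM. These totals are rough, since 27.6 to 36.4% of the low loci they rest on gave whole reads within 0.02. Replicates of 1 temperature correlated at 0.958 to 0.975 across the tested genes, which are not independent replicates. The 6 leaf markers were all detected, with a summed level of 5508 to 7156 RPKM at 11 °C, 21396 to 21964 at 13 °C and 33807 to 48366 at 25 °C. Rubisco activase carried the highest sums: without it the other 5 leaf markers summed to 4858 to 6141 RPKM at 11 °C, 17059.7 to 17249.5 at 13 °C and 6790.1 to 11736 at 25 °C, so that 13 °C was highest. Most of that sum at 13 °C was the Rubisco small subunit gene LOC_Os12g17600, at 10523 and 9566 RPKM. The chlorophyll-binding markers had lower means at 13 than at 25 °C: CAB1R 1393 against 2238 RPKM, a difference not called, and CAB2R 19.5 against 39.6 RPKM. Of the 6 markers, 4 encode parts of the same carbon fixing system, so the list is not independent of the pathway. Of 3 root markers, 2 matched a locus: RCc3 was at 0 in 5 libraries and 0.127 RPKM in replicate 2 at 11 °C, and OsLsi1, a silicon channel, had 0.668 to 0.814 RPKM at 11 °C, 10.9 to 11.9 at 13 °C and 12.9 to 18.1 at 25 °C. The matched meristem markers, 2 of 3, summed to 2.0 to 2.3 RPKM at 11 °C and 4.17 to 5.46 at the other temperatures. The clock genes also differed: OsLHY, a morning gene, had 113 to 115 RPKM at 11 °C, 251 to 386 at 13 °C and 1654 to 2446 at 25 °C, while OsPRR1, an evening gene, had 140.4 to 185, 71.7 to 89.7 and 1.27 to 1.36 RPKM. The part of these markers and of the time of day in the results below was not tested. In bulk tissue, fewer cells of a type and less RNA per cell cannot be told apart.

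At 11 °C most members of both pathways had their lowest mean. Between 13 and 25 °C most of the 57 members did not pass, which does not show that their levels were equal. Against 25 °C, 26 of the 57 members fell at 11 °C, 8 rose and 23 did not pass (limma, adjusted p, 2 replicates per temperature), where 50.0% of all loci were called, 21.4% lower and 28.6% higher. The median log2 difference of RPKM + 1 was -0.68 for the members and 0.13 for all loci. At 13 °C against 25 °C, 13 members rose, 9 fell and 35 did not pass, where 43.3% of all loci were called, 26.3% higher and 17.0% lower, and the medians were 0.26 and 0.12. The members' share called at 13 °C was 38.6%. With the replicate number as a block, 24 members rose and 12 fell at 13 °C, or 63.2% called against 62.9% of all loci. At 11 °C against 13 °C, 26 members were lower, 3 were higher and 28 did not pass, where 35.4% of all loci were called, 18.2% lower and 17.2% higher, and the medians were -0.68 and -0.02. The count of 26 lower at 11 against 25 °C became 14 or 12 without replicate 1 or 2 at 11 °C. At 11 against 13 °C the same number became 16 without replicate 1 at 11 °C and 15 when replicate 2 at 13 °C was left out. The 9 falls at 13 °C became 5 when replicate 1 at 13 °C was left out. The 3 comparisons share libraries and are not independent of each other.

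As a description of the order of the 3 means, with no test, the mean was highest at 13 °C for 28 of 57 members (49.1%), against 32.3% of all loci, and lowest at 11 °C for 35 members (61.4%), against 32.2%. Among the Calvin cycle enzymes 7 of 10 had their highest mean at 13 °C and 8 of 10 their lowest at 11 °C. In photorespiration the numbers were 11 and 14 of 21. The 7, and so the 28, include LOC_Os10g30550, which passed the filter through cold libraries alone, so that its order was partly fixed by the filter. Between 13 and 25 °C the order often rests on differences that did not pass the test, since 5 of 10 Calvin cycle and 15 of 21 photorespiration members were not called in that comparison.

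Levels below are RPKM, which is scaled to gene length, given for replicate 1 and then replicate 2. With 2 libraries per temperature, groups without overlap were common. They were seen in 74.6% of all loci at 11 against 25 °C, 70.3% at 13 against 25 °C and 68.3% at 11 against 13 °C. Among the members the shares were 80.7%, 78.9% and 82.5%. Differences are log2 differences of RPKM + 1 ± standard error over all 6 libraries, which understate the change of genes below a few RPKM, and ratios are ratios of mean RPKM. All p-values are limma's, adjusted over the 19438 loci, and measure the spread between these samples. Each comparison was refitted in 11 other ways: leaving out each library, with a replicate block, with another pseudocount, without the expression filter and with 2 other scalings. A gene said to rise or fall without a further remark kept its call in all 11. Where a comparison that did not pass was called in some of them, those refits are named.

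The 10 Calvin cycle enzymes were all called between 11 and 25 °C, 8 lower and 2 higher, with a median log2 difference of -0.90. Single libraries weighed heavily on this count: 4 or 2 were lower without replicate 1 or 2 at 11 °C, 5 without replicate 2 at 13 °C or replicate 2 at 25 °C, and 4 without the expression filter. At 13 against 25 °C 3 were higher, 2 lower and 5 did not pass (median 0.33), and at 11 against 13 °C 8 were lower and 2 did not pass (median -1.32), with 5 lower without replicate 1 at 11 °C or replicate 2 at 13 °C. Of all loci 50.0% were called at 11 against 25 °C, 21.4% lower and 28.6% higher. At 11 against 13 °C 35.4% of all loci were called, 18.2% lower and 17.2% higher. For 13 against 25 °C the share of these enzymes called, 50.0%, lay near the 43.3% of all loci. There 26.3% of all loci were higher and 17.0% lower. The enzymes with the steepest falls at 11 °C were both aldolases and phosphoribulokinase.

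In the reduction phase, phosphoglycerate kinase adds the phosphate that lets phosphoglycerate be reduced. Its abundant chloroplast gene (LOC_Os05g41640, chromosome 5, 24378361 to 24381762) had 66.5 and 58.0 RPKM at 11 °C, 254 and 286 at 13 °C, and 87.1 and 115 RPKM at 25 °C. The 3 groups do not overlap, with 13 °C far above the others and 11 °C lowest. The gene rose 2.67-fold at 13 °C (1.42 ± 0.23, adjusted p = 0.00174) and was 4.34-fold lower at 11 than at 13 °C (-2.10 ± 0.23, adjusted p = 0.000488). Its fall at 11 against 25 °C was smaller (-0.68 ± 0.23, adjusted p = 0.038) and lost its call without either 11 °C library, either 13 °C library, or replicate 2 at 25 °C, and without the expression filter (adjusted p from 0.0111 to 0.193 over the refits). A second chloroplast locus, described as phosphoglycerate kinase 1 (LOC_Os10g30550), was near the detection limit, at 0.824 to 1.72 RPKM in the cold and 0.127 to 0.317 RPKM at 25 °C, values that rest on few reads. It passed the filter through cold libraries alone, so its rise was partly fixed by the filter, and leaving this locus out the Calvin cycle had 1 rise at 11 °C and 2 at 13 °C. It was higher at 13 °C (0.98 ± 0.22, adjusted p = 0.00824) and at 11 °C (0.76 ± 0.22, adjusted p = 0.0212), the latter not without replicate 2 at 11 °C or replicate 2 at 25 °C, nor without the expression filter (adjusted p from 0.0115 to 0.117).

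Fructose-bisphosphate aldolase, which joins triose phosphates into sugar bisphosphates, has 2 chloroplast members here. LOC_Os11g07020 (chromosome 11, 3488553 to 3491659) was the most abundant of all 57 members, with 2869.7 and 1942 RPKM at 11 °C, 3116 and 3416 at 13 °C, and 8152 and 8835 RPKM at 25 °C. Both cold groups lay well below 25 °C, and the 2 cold groups lay close to each other. It fell 3.53-fold at 11 °C (-1.85 ± 0.34, adjusted p = 0.00297) and 2.6-fold at 13 °C (-1.38 ± 0.34, adjusted p = 0.0132), while 11 against 13 °C did not pass (-0.47 ± 0.34, adjusted p = 0.329). The call at 11 °C was lost without replicate 2 at 11 °C and without the expression filter (adjusted p up to 0.0622). The call at 13 °C was lost without either 13 °C library, without the filter and under TMM-type scaling (adjusted p up to 0.144).

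The other aldolase gene, LOC_Os12g07210 (chromosome 12, 3542457 to 3544936), had 8.2 and 9.61 RPKM at 11 °C, 90.9 and 152 at 13 °C, and 256 and 411 RPKM at 25 °C. The level stepped up with temperature and no groups overlap. It was 37.5-fold lower at 11 than at 25 °C (-5.04 ± 0.32, adjusted p = 2.74e-05), 2.75-fold lower at 13 °C (-1.46 ± 0.32, adjusted p = 0.00743) and 13.6-fold lower at 11 than at 13 °C (-3.58 ± 0.32, adjusted p = 0.000239). Reads of these 2 related genes may be shared between the loci, since how such reads were counted is not given.

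Chloroplast fructose-1,6-bisphosphatase, which removes a phosphate in an irreversible, light-regulated step, has 2 loci that were called in opposite directions at 11 against 25 °C and were both lower at 11 than at 13 °C. LOC_Os03g16050 had 186 RPKM in both libraries at 11 °C, 459 and 568 at 13 °C, and 274 and 423 RPKM at 25 °C. The 11 °C libraries were lowest and the 13 °C libraries highest. The gene was 2.76-fold lower at 11 than at 13 °C (-1.45 ± 0.27, adjusted p = 0.0052) and lower than at 25 °C (-0.87 ± 0.27, adjusted p = 0.0297). The latter call was lost without either 11 °C library, replicate 2 at 13 °C or replicate 2 at 25 °C, without the filter and under quantile normalization (adjusted p up to 0.121). At 13 against 25 °C the difference of 0.58 ± 0.27 did not pass (adjusted p = 0.124), but did with the replicate block (adjusted p = 0.0434) and when replicate 2 at 25 °C was left out (adjusted p = 0.0263).

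LOC_Os06g45370 (chromosome 6, 27428887 to 27431108), with the same description, had 12.3 and 18.2 RPKM at 11 °C, 24.9 and 34.3 at 13 °C, and 1.05 and 1.13 RPKM at 25 °C. It was close to the expression threshold at 25 °C and clearly above it in all 4 cold libraries. It rose 14.0-fold at 11 °C (2.94 ± 0.28, adjusted p = 0.000121) and 27.1-fold at 13 °C (3.85 ± 0.28, adjusted p = 4.83e-05). It was also lower at 11 than at 13 °C (-0.92 ± 0.28, adjusted p = 0.0356). This call was lost without replicate 1 at 11 °C, without either 13 °C library and without the filter (adjusted p up to 0.216). Even at 13 °C its mean of 29.6 ± 6.62 RPKM (SD, n = 2) stayed below the 513 ± 77.3 RPKM (SD, n = 2) of the other locus.

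Transketolase, sedoheptulose-1,7-bisphosphatase and ribulose-phosphate 3-epimerase, which shuffle and trim the sugar phosphates, had their lowest level at 11 °C, and none of them passed between 13 and 25 °C. Transketolase (LOC_Os06g04270) had 169.6 and 165 RPKM at 11 °C, 417 and 494 at 13 °C, and 306 and 397 RPKM at 25 °C. Sedoheptulose-1,7-bisphosphatase (LOC_Os04g16680) had 283 and 287 RPKM at 11 °C, 576 and 756 at 13 °C, and 408 and 729 RPKM at 25 °C. The chloroplast epimerase (LOC_Os03g07300) had 216 and 229.5 RPKM at 11 °C, 374 and 498 at 13 °C, and 381 and 419.9 RPKM at 25 °C. In all 3 genes the 2 libraries at 11 °C lay below the other 4, while 13 and 25 °C overlap for the bisphosphatase and the epimerase. Against 13 °C the falls at 11 °C were 2.72-fold for transketolase (-1.43 ± 0.24, adjusted p = 0.00294), 2.34-fold for the bisphosphatase (-1.21 ± 0.32, adjusted p = 0.0212) and 1.96-fold for the epimerase (-0.95 ± 0.24, adjusted p = 0.0172). Against 25 °C the differences at 11 °C were -1.05 ± 0.24 (adjusted p = 0.00731), -0.94 ± 0.32 (adjusted p = 0.0408) and -0.84 ± 0.24 (adjusted p = 0.0199) in the same order. At 13 against 25 °C the differences were 0.38 ± 0.24 (adjusted p = 0.235), 0.27 ± 0.32 (adjusted p = 0.531) and 0.11 ± 0.24 (adjusted p = 0.744).

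These 3 genes had calls that depended on single libraries. Transketolase lost its call at 11 against 25 °C without replicate 2 at 11 °C (adjusted p = 0.0534). The bisphosphatase lost its call against 25 °C without any 1 of the 6 libraries except replicate 1 at 25 °C, without the filter and under quantile normalization (adjusted p up to 0.195). Its call against 13 °C was lost without either 11 °C library or replicate 2 at 13 °C, without the filter and under quantile normalization (adjusted p up to 0.139). The epimerase lost its call against 25 °C without either 11 °C library and under quantile normalization (adjusted p up to 0.116), and against 13 °C without either 11 °C library or replicate 2 at 13 °C (adjusted p up to 0.162).

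Phosphoribulokinase makes the acceptor ribulose bisphosphate and closes the cycle. Its gene (LOC_Os02g47020, chromosome 2, 28701804 to 28704409) had 219 and 189 RPKM at 11 °C, 949.5 and 1093 at 13 °C, and 1374 and 1827 RPKM at 25 °C. The groups do not overlap, and the gap lies mainly between 11 and 13 °C. It was 7.84-fold lower at 11 than at 25 °C (-2.95 ± 0.26, adjusted p = 9.33e-05) and 5.01-fold lower than at 13 °C (-2.32 ± 0.26, adjusted p = 0.000592), while 13 against 25 °C did not pass (-0.64 ± 0.26, adjusted p = 0.0868) except without replicate 1 at 25 °C (adjusted p = 0.0332).

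**Figure D1:**
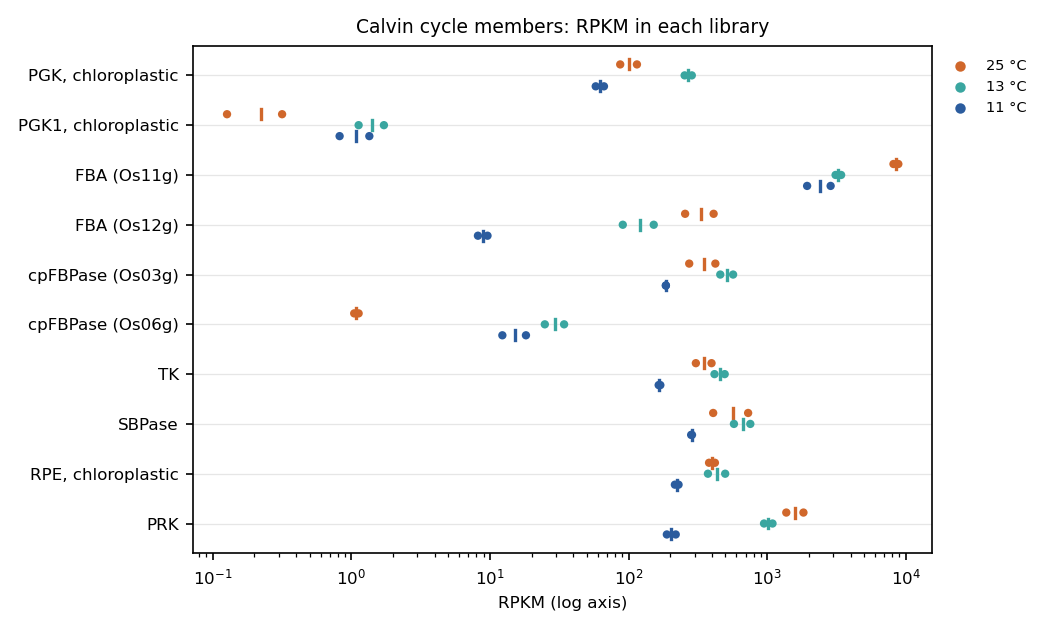
RPKM on a log axis for the 10 Calvin cycle members, with 1 point per library and a short line at the mean of the 2 libraries of each temperature; PGK is phosphoglycerate kinase, FBA aldolase, cpFBPase chloroplast fructose-1,6-bisphosphatase, TK transketolase, SBPase sedoheptulose-1,7-bisphosphatase, RPE the epimerase and PRK phosphoribulokinase. The points at 11 °C are the lowest for 8 genes, with phosphoribulokinase at 189 and 219 RPKM, while phosphoglycerate kinase 1 and the bisphosphatase LOC_Os06g45370 are lowest at 25 °C.

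In photorespiration, at 11 against 25 °C, 7 of the 21 members fell, 2 rose and the other 12 were not called (median -0.31). At 13 °C, 4 rose, 2 fell and 15 did not pass (median 0.25). The shares called, 42.9% and 28.6%, lay below the 50.0% and 43.3% of all loci. By direction, 33.3% were lower and 9.52% higher at 11 against 25 °C, where 21.4% and 28.6% of all loci were. For 13 against 25 °C the shares were 9.52% lower and 19.0% higher, against 17.0% and 26.3% of all loci. Against 13 °C, 10 were lower at 11 °C, 1 was higher and 10 did not pass (median -0.81), or 52.4% called where 35.4% of all loci were. Without 1 library the falls at 11 against 25 °C numbered 4 to 8, with 4 without either 11 °C library, and the lower ones at 11 than at 13 °C 6 to 12, with 6 without replicate 2 at 13 °C. The difference of largest size was that of the peroxisomal oxidase GLO4 at 11 against 25 °C and that of a mitochondrial H protein in the other 2 comparisons.

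In the chloroplast, phosphoglycolate phosphatase starts the pathway by removing the phosphate of phosphoglycolate. The more abundant 1B locus (LOC_Os04g41340) had 271 and 306 RPKM at 11 °C, 459 and 558 at 13 °C, and 300.3 and 426 RPKM at 25 °C. The 13 °C libraries were highest and the 11 and 25 °C libraries overlap. It was 1.76-fold lower at 11 than at 13 °C (-0.81 ± 0.26, adjusted p = 0.0443). The call was lost without either 11 °C library, either 13 °C library, without the filter and under quantile normalization (adjusted p up to 0.251). The other comparisons did not pass, with -0.31 ± 0.26 at 11 °C (adjusted p = 0.355) and 0.50 ± 0.26 at 13 °C (adjusted p = 0.163; adjusted p = 0.0496 without replicate 2 at 25 °C). The second 1B locus (LOC_Os12g23150) had 8.38 to 19.5 RPKM and did not pass in any comparison, although the replicate block gave an adjusted p = 0.0345 at 13 against 25 °C and an adjusted p = 0.00884 at 11 against 13 °C. The latter also passed under TMM-type scaling and quantile normalization.

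In the peroxisome, glycolate oxidase turns glycolate into glyoxylate and releases hydrogen peroxide. Of its 6 members, GLO1 and GLO5 made up most of the transcript. GLO1 (LOC_Os03g57220) had 866 and 749 RPKM at 11 °C, 1435 and 1403 at 13 °C, and 1735 and 1047 RPKM at 25 °C. Its 11 °C libraries were lowest, but the 25 °C replicates were far apart and no comparison passed (-0.74 ± 0.31 at 11 against 25 °C, adjusted p = 0.0832; -0.82 ± 0.31 at 11 against 13 °C, adjusted p = 0.0786; 0.07 ± 0.31 at 13 against 25 °C, adjusted p = 0.873). GLO1 was called lower at 11 than at 25 °C without replicate 2 at 25 °C (adjusted p = 0.0118), and lower at 11 than at 13 °C without either 25 °C library (lowest adjusted p = 0.016). GLO5 (LOC_Os07g05820) had 631 and 643 RPKM at 11 °C, 1529.5 and 1747 at 13 °C, and 1422 and 1141 RPKM at 25 °C. It was 2.57-fold lower at 11 than at 13 °C (-1.36 ± 0.27, adjusted p = 0.00606) and 2.01-fold lower than at 25 °C (-1.0 ± 0.27, adjusted p = 0.0151). The first call was lost without replicate 2 at 11 °C or replicate 2 at 13 °C (adjusted p up to 0.0767), the second without either 11 °C library or replicate 2 at 13 °C, without the filter and under quantile normalization (adjusted p up to 0.205).

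GLO4 (LOC_Os07g42440, chromosome 7, 25408332 to 25413871) went the other way. It had 18.2 and 19.5 RPKM at 11 °C, 8.0 and 9.68 at 13 °C, and 1.34 and 1.44 RPKM at 25 °C, so that the level rose with each step down in temperature and no groups overlap. It was 13.5-fold higher at 11 than at 25 °C (3.05 ± 0.23, adjusted p = 5.05e-05), 6.35-fold higher at 13 °C (2.04 ± 0.23, adjusted p = 0.000363) and 2.13-fold higher at 11 than at 13 °C (1.02 ± 0.23, adjusted p = 0.012). The last call was lost without either 11 °C library or replicate 1 at 13 °C (adjusted p up to 0.0917). At its highest, GLO4 was still far below the 631 to 866 RPKM of GLO1 and GLO5 at 11 °C.

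For the remaining glycolate oxidase loci no comparison of temperatures passed. A second locus described as GLO1 (LOC_Os08g09860) had 66.4 and 134 RPKM at 11 °C, 39.5 and 74.3 at 13 °C, and 54.8 and 136 RPKM at 25 °C. Replicate 2 was the higher at each temperature, and all groups overlap. Its lowest adjusted p was 0.265, but with the replicate block it was lower at 13 than at 25 °C (-0.66, adjusted p = 0.00643) and higher at 11 than at 13 °C (0.79, adjusted p = 0.00356). GLO2 (LOC_Os04g53214), at 6.13 to 27.3 RPKM, had the same pattern of replicates, and its difference of 1.11 ± 0.43 at 11 against 25 °C did not pass (adjusted p = 0.0649). It did with the block (adjusted p = 0.000228) and without replicate 1 at 11 °C, either 13 °C library or replicate 2 at 25 °C. With the block GLO2 was also higher at 11 than at 13 °C (adjusted p = 0.001). GLO3 (LOC_Os04g53210) stayed at 0.651 to 1.3 RPKM and was not called, other than lower at 13 than at 25 °C under quantile normalization (adjusted p = 0.0362). GLO2 and GLO3 lie 523 bp apart on chromosome 4 on the same strand, and 4259 bp beyond GLO2 begins the gene of the T protein described below.

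The peroxisomal aminotransferases turn glyoxylate into glycine. Glutamate:glyoxylate aminotransferase 1 (LOC_Os07g01760) had 473 and 500.2 RPKM at 11 °C, 1339 and 1460.3 at 13 °C, and 1285 and 1073 RPKM at 25 °C. Its 11 °C libraries lay apart from the other 4. It was 2.88-fold lower at 11 than at 13 °C (-1.52 ± 0.25, adjusted p = 0.00299) and 2.42-fold lower than at 25 °C (-1.27 ± 0.25, adjusted p = 0.00409), the latter not under quantile normalization (adjusted p = 0.0619).

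Serine:glyoxylate aminotransferase (LOC_Os08g39300), which also makes hydroxypyruvate from serine, had 699 and 699.5 RPKM at 11 °C, 1024 and 1036 at 13 °C, and 1959 and 1141 RPKM at 25 °C. The groups step up without overlap, but the 25 °C replicates were far apart. It fell 2.22-fold at 11 against 25 °C (-1.10 ± 0.31, adjusted p = 0.0208). It lost this call without either 11 °C library or replicate 2 at 13 °C, without the filter and under quantile normalization (adjusted p up to 0.164). The steps from 13 to 25 °C (-0.54 ± 0.31, adjusted p = 0.206) and from 11 to 13 °C (-0.56 ± 0.31, adjusted p = 0.206) did not pass. The former was called without replicate 2 at 25 °C (adjusted p = 0.0198) and the latter without replicate 1 at 25 °C (adjusted p = 0.0454).

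In the mitochondrion, the glycine decarboxylase complex splits glycine and, with serine hydroxymethyltransferase, makes serine from 2 glycines. The P protein carries out the decarboxylation, the H protein shuttles the intermediate on its lipoyl arm, and the T protein hands the remaining carbon to a folate. The P protein locus LOC_Os01g51410 had 351 and 273 RPKM at 11 °C, 387 and 422 at 13 °C, and 1059.6 and 1258 RPKM at 25 °C. Both cold groups lay far below 25 °C. It fell 3.71-fold at 11 °C (-1.90 ± 0.25, adjusted p = 0.000559) and 2.87-fold at 13 °C (-1.51 ± 0.25, adjusted p = 0.002), and 11 against 13 °C did not pass (-0.38 ± 0.25, adjusted p = 0.272). The other P protein locus, LOC_Os06g40940, had 303 and 348 RPKM at 11 °C, 432 and 525 at 13 °C, and 413 and 556 RPKM at 25 °C. None of its comparisons passed, although with the block it was lower at 11 than at 25 °C (-0.56, adjusted p = 0.0329; adjusted p = 0.105 without it) and than at 13 °C (-0.55, adjusted p = 0.0408; adjusted p = 0.132 without it). The former was also called under TMM-type scaling and without replicate 1 at 25 °C.

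The H protein gene LOC_Os10g37180 (chromosome 10, 19894708 to 19896859) had 53.4 and 46.9 RPKM at 11 °C, 808 and 781 at 13 °C, and 55.8 and 32.5 RPKM at 25 °C. It stood high at 13 °C alone, and the 11 and 25 °C libraries overlap. It was 18.0-fold higher at 13 than at 25 °C (4.19 ± 0.28, adjusted p = 3.5e-05) and 15.8-fold higher at 13 than at 11 °C (-3.96 ± 0.28 as 11 minus 13 °C, adjusted p = 0.000107). No call was made at 11 against 25 °C (0.23 ± 0.28, adjusted p = 0.525). Among the 57 members no other log2 difference at 13 against 25 °C was as large.

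The T protein gene LOC_Os04g53230 (chromosome 4, 31700907 to 31703617) had the same order in a milder form, with 88.9 and 80.1 RPKM at 11 °C, 262 and 277 at 13 °C, and 66.5 and 112 RPKM at 25 °C. The 13 °C libraries lay above the other 4, and 11 and 25 °C overlap. It was 3.02-fold higher at 13 than at 25 °C (1.63 ± 0.27, adjusted p = 0.0021) and 3.19-fold higher than at 11 °C (-1.66 ± 0.27 as 11 minus 13 °C, adjusted p = 0.00282). The comparison of 11 with 25 °C did not pass (-0.03 ± 0.27, adjusted p = 0.936).

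The proportions of the subunit transcripts therefore differed with temperature. The H protein gene LOC_Os10g37180 over the sum of both P protein genes, as a ratio of RPKM, was 0.0817 and 0.0756 at 11 °C, 0.986 and 0.825 at 13 °C, and, at 25 °C, 0.0379 and 0.0179. The T protein over the same sum was 0.136 and 0.129 at 11 °C, 0.319 and 0.293 at 13 °C, and, at 25 °C, 0.0452 and 0.0616. Both ratios were highest at 13 °C and lowest at 25 °C, with no overlap between temperatures. The P sum itself was 653 and 621 RPKM at 11 °C, 819.5 and 947 at 13 °C, and 1472 and 1814 RPKM at 25 °C. These ratios are given as a description, with no test.

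Both loci described as H protein 2 were scarce. LOC_Os02g07410, at 2.14 to 6.49 RPKM, rose at 11 against 25 °C (1.08 ± 0.24, adjusted p = 0.00687), not without replicate 1 at 11 °C (adjusted p = 0.0503), and with the block it also passed at 13 against 25 °C (0.50, adjusted p = 0.0375; adjusted p = 0.128 without it) and at 11 against 13 °C (0.57, adjusted p = 0.0248; adjusted p = 0.0984 without it). LOC_Os06g45670, at 1.35 to 4.12 RPKM, was lower at 11 than at 13 °C (-0.84 ± 0.26, adjusted p = 0.0369). That call was lost without replicate 1 at 11 °C, either 13 °C library or replicate 2 at 25 °C and without the filter (adjusted p up to 0.223), and its difference at 13 against 25 °C of 0.59 ± 0.26 passed with the block (adjusted p = 0.0269) and not without it (adjusted p = 0.103).

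Mitochondrial serine hydroxymethyltransferase (LOC_Os03g52840, chromosome 3, 30299551 to 30304249) followed the P protein locus that fell. It had 254 and 244 RPKM at 11 °C, 434 and 612 at 13 °C, and 1180.4 and 1535 RPKM at 25 °C, stepping up with temperature without overlap. It was 5.45-fold lower at 11 than at 25 °C (-2.43 ± 0.27, adjusted p = 0.000265) and 2.6-fold lower at 13 °C (-1.38 ± 0.27, adjusted p = 0.00467), the latter not without replicate 1 at 13 °C (adjusted p = 0.054). It was also lower at 11 than at 13 °C (-1.05 ± 0.27, adjusted p = 0.0204). That call was lost without either 11 °C library or replicate 2 at 13 °C, without the filter and under quantile normalization (adjusted p up to 0.188).

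On the way back, hydroxypyruvate reductase of the peroxisome (LOC_Os02g01150) makes glycerate. It had 93.8 and 123 RPKM at 11 °C, 358 and 443 at 13 °C, and 326 and 407 RPKM at 25 °C. The 11 °C libraries lay below the rest, and 13 and 25 °C overlap. It was 3.7-fold lower at 11 than at 13 °C (-1.88 ± 0.25, adjusted p = 0.0012) and 3.39-fold lower than at 25 °C (-1.75 ± 0.25, adjusted p = 0.00085). The comparison of 13 with 25 °C did not pass (0.13 ± 0.25, adjusted p = 0.719). Glycerate kinase (LOC_Os01g48990), which feeds glycerate back into the Calvin cycle, had 51.5 and 59.0 RPKM at 11 °C, 75.9 and 96.0 at 13 °C, and 85.3 and 135 RPKM at 25 °C. It fell 1.99-fold at 11 against 25 °C (-0.95 ± 0.27, adjusted p = 0.0206). This call was lost without either 11 °C library or replicate 2 at 25 °C and without the filter (adjusted p up to 0.0968). At 11 against 13 °C its difference of -0.62 ± 0.27 passed with the block (adjusted p = 0.0119) and not without it (adjusted p = 0.112).

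The translocator PLGG1 exchanges glycolate for glycerate across the chloroplast envelope, and both of its loci peaked at 13 °C. LOC_Os10g42780 had 86.4 and 123 RPKM at 11 °C, 251 and 356 at 13 °C, and 149 and 196 RPKM at 25 °C, in 3 groups that do not overlap. It was 2.9-fold lower at 11 than at 13 °C (-1.53 ± 0.29, adjusted p = 0.00497). Its differences from 25 °C of -0.72 ± 0.29 at 11 °C (adjusted p = 0.0661) and 0.80 ± 0.29 at 13 °C (adjusted p = 0.0523) did not pass, but did with the replicate block (adjusted p = 0.00369 and adjusted p = 0.00263). Both were also called under TMM-type scaling, and that at 13 °C under quantile normalization. LOC_Os01g32830 had 5.45 and 6.36 RPKM at 11 °C, 40.8 and 53.2 at 13 °C, and 2.77 and 4.93 RPKM at 25 °C. It was 12.2-fold higher at 13 than at 25 °C (3.33 ± 0.29, adjusted p = 0.000106) and 7.96-fold higher than at 11 °C (-2.79 ± 0.29 as 11 minus 13 °C, adjusted p = 0.000405). At 11 against 25 °C it did not pass (0.54 ± 0.29, adjusted p = 0.154), but did with the block (adjusted p = 0.016).

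**Figure D2:**
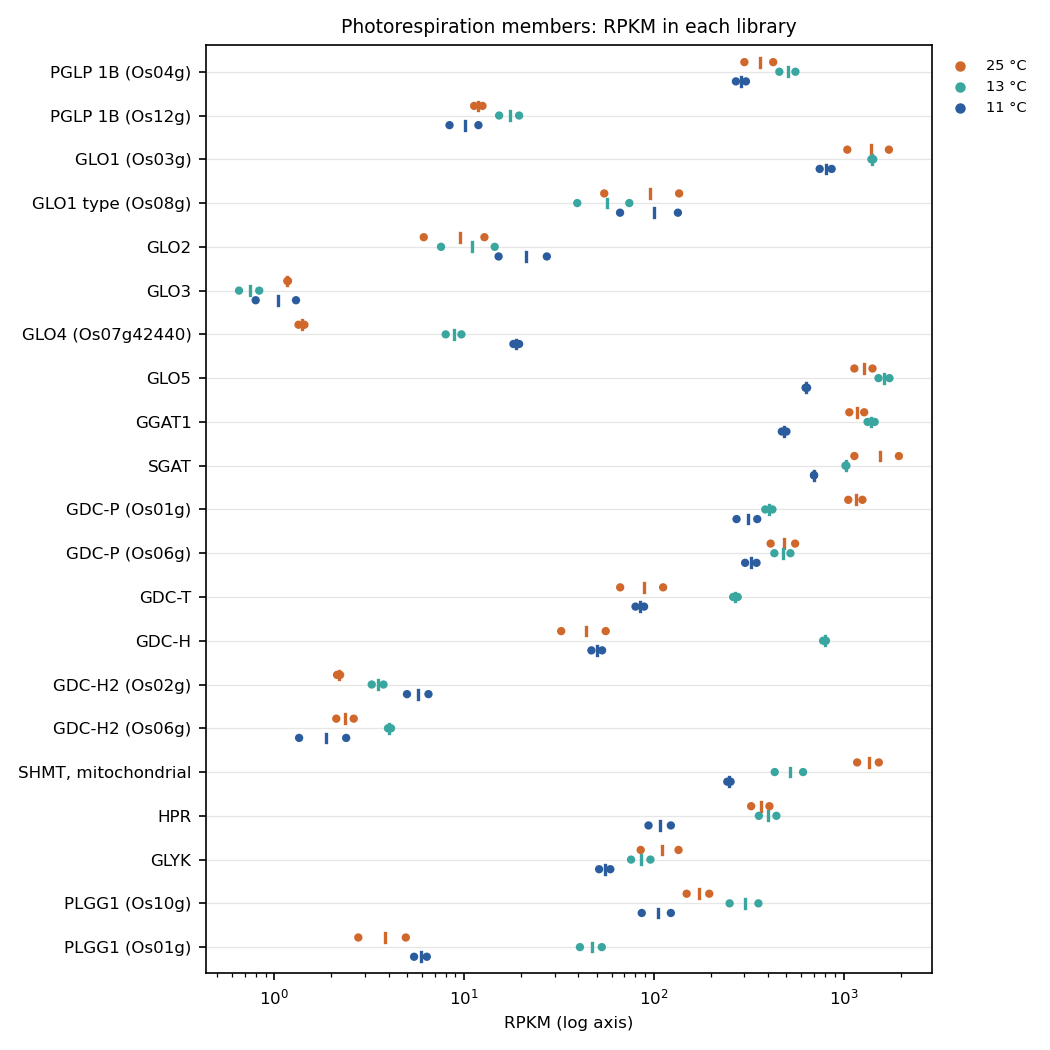
RPKM on a log axis for the 21 photorespiration members, with 1 point per library and a short line at the mean of the 2 libraries of each temperature; PGLP is phosphoglycolate phosphatase, GLO glycolate oxidase, GGAT and SGAT the aminotransferases, GDC glycine decarboxylase with its P, T and H proteins, SHMT serine hydroxymethyltransferase, HPR hydroxypyruvate reductase, GLYK glycerate kinase and PLGG1 the translocator. The H protein stands at 781 and 808 RPKM at 13 °C against 32.5 to 55.8 RPKM in the other libraries, while mitochondrial serine hydroxymethyltransferase steps up from 244 to 1535 RPKM with temperature.

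**Figure D3:**
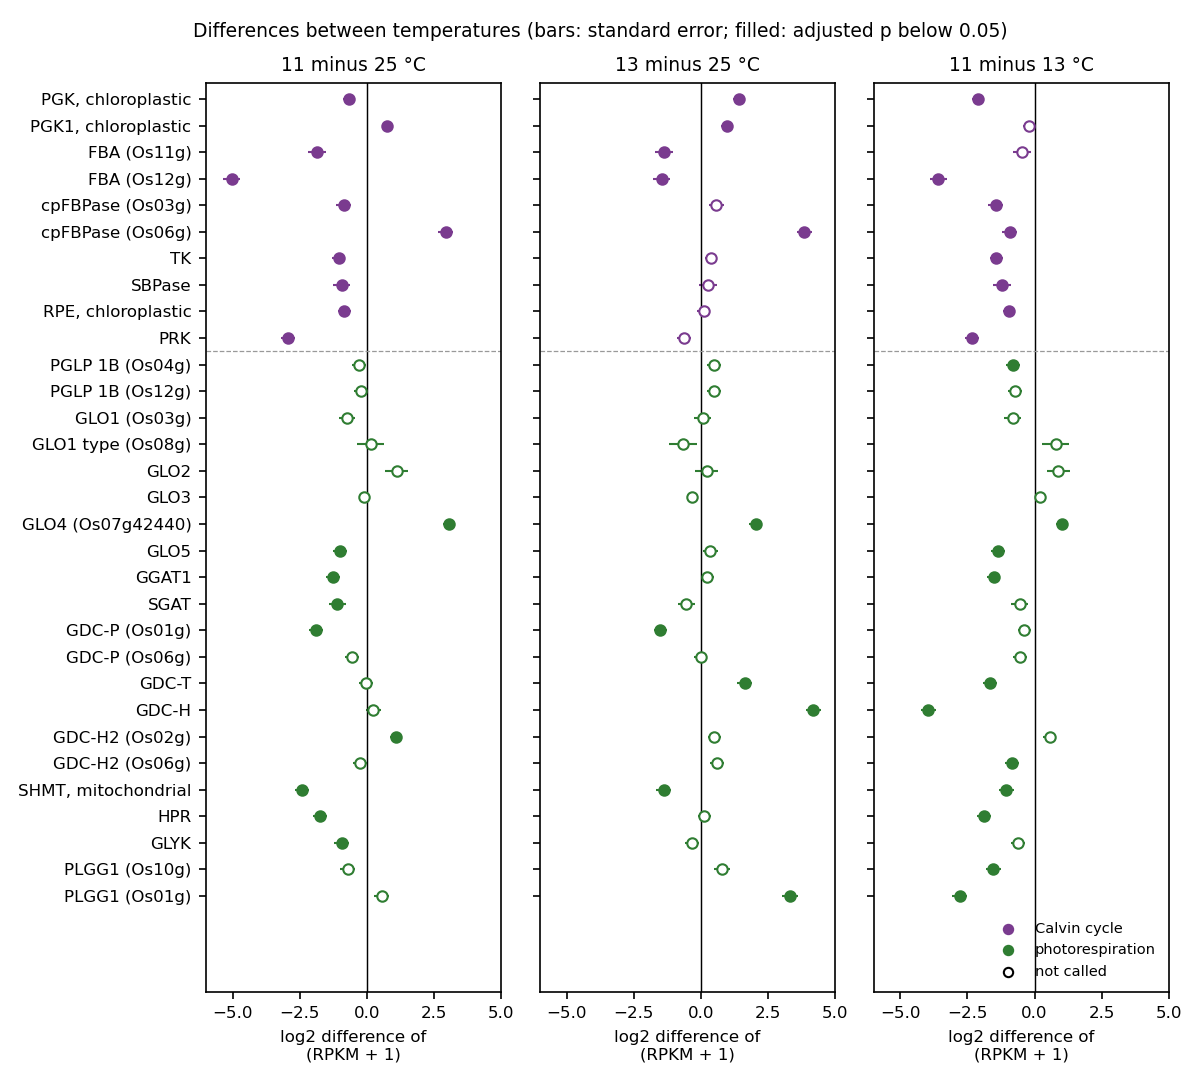
Log2 differences of RPKM + 1 with standard errors for the 10 Calvin cycle and 21 photorespiration members in the 3 comparisons, with filled points where the adjusted p is below 0.05. In the left panel (11 minus 25 °C) filled points lie mostly left of 0, down to -5.04 for the aldolase LOC_Os12g07210, and in the middle panel (13 minus 25 °C) many points lie near 0 with the H protein at 4.19.

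The 26 other enzymes had 11 falls, 4 rises and 11 not passed at 11 against 25 °C (median -0.28), 6 rises, 5 falls and 15 not passed at 13 against 25 °C (median 0.08), and 8 lower, 2 higher and 16 not passed at 11 against 13 °C (median -0.48). The shares called, 57.7%, 42.3% and 38.5% in the same order, lay near the 50.0%, 43.3% and 35.4% of all loci, but their directions differed. Of these enzymes 42.3% were lower and 15.4% higher at 11 against 25 °C, where 21.4% and 28.6% of all loci were. For 11 against 13 °C the shares were 30.8% lower and 7.69% higher, against 18.2% and 17.2% of all loci. Those for 13 against 25 °C, 19.2% lower and 23.1% higher, lay near the 17.0% and 26.3% of all loci. The 11 falls became 6 without either 11 °C library or replicate 2 at 25 °C, the 5 falls became 3 without replicate 1 at 13 °C or either 25 °C library, and the 8 lower became 4 or 5 without either 11 °C library and 4 when replicate 2 at 13 °C was left out. The median at 13 against 25 °C turned to -0.04 under TMM-type scaling and to -0.15 under quantile normalization. These enzymes act in glycolysis, in sucrose and serine synthesis and in related steps outside the 2 cycles.

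Cytosolic fructose-1,6-bisphosphatase leads triose phosphate exported from the chloroplast towards sucrose. Its main locus, LOC_Os01g64660 (chromosome 1, 37519523 to 37522613), had 22.6 and 33.0 RPKM at 11 °C, 198 and 286 at 13 °C, and 131 and 119 RPKM at 25 °C. The groups do not overlap, with 13 °C highest and 11 °C lowest. This gene and chloroplast phosphoglycerate kinase were the 2 members called in opposite directions at 11 and 13 °C, as were 1.68% of all loci. It was 4.49-fold lower at 11 than at 25 °C (-2.15 ± 0.27, adjusted p = 0.000443) and 8.7-fold lower than at 13 °C (-3.08 ± 0.27, adjusted p = 0.000232). Its 1.94-fold rise at 13 against 25 °C (0.92 ± 0.27, adjusted p = 0.0258) lost its call without replicate 2 at 13 °C or either 25 °C library and without the filter (adjusted p up to 0.176). The second cytosolic locus, LOC_Os05g36270, with 4.26 to 12.4 RPKM, fell at 11 °C (-1.11 ± 0.28, adjusted p = 0.0111), not without replicate 1 at 11 °C or replicate 2 at 25 °C (adjusted p up to 0.0744). Its fall at 13 °C (-0.79 ± 0.28, adjusted p = 0.0493) was lost without any 1 of the 6 libraries, with a pseudocount of 0.1 and without the filter (adjusted p up to 0.286).

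The phosphoglycerate mutases of glycolysis, which turn 3-phosphoglycerate into 2-phosphoglycerate, included the clearest rises. The cofactor-independent mutase LOC_Os01g60190 had 125 and 137 RPKM at 11 °C, 139 and 168 at 13 °C, and 13.6 and 17.2 RPKM at 25 °C, with both cold groups far above 25 °C. It rose 8.52-fold at 11 °C (3.02 ± 0.22, adjusted p = 4.28e-05) and 9.99-fold at 13 °C (3.24 ± 0.22, adjusted p = 3.94e-05). A second such locus, LOC_Os05g40420, rose 4.74-fold and 5.69-fold (2.17 ± 0.24, adjusted p = 0.00024, and 2.42 ± 0.24, adjusted p = 0.000191), and the third, LOC_Os12g35040, was not called at 5.49 to 8.31 RPKM.

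The mutase-like proteins had lower levels, and several of them fell. The AT74-type locus LOC_Os06g01950 was 3.82-fold lower at 11 than at 25 °C (-1.83 ± 0.22, adjusted p = 0.000362) and lower than at 13 °C (-1.27 ± 0.22, adjusted p = 0.00363), and its difference at 13 °C (-0.56, adjusted p = 0.0749) passed with the block (adjusted p = 0.0086) and under both other scalings. LOC_Os08g37140 fell at 11 °C (-0.92 ± 0.21, adjusted p = 0.00778), not without replicate 2 at 11 °C (adjusted p = 0.0561), and with the block passed also at 13 °C (-0.47, adjusted p = 0.0154; adjusted p = 0.109 in the fit without it, though TMM-type scaling gave a call too) and at 11 against 13 °C (-0.45, adjusted p = 0.0195; adjusted p = 0.132 without it). The cofactor-dependent mutase LOC_Os02g51590 fell at 11 °C (-0.71 ± 0.22, adjusted p = 0.0289), not without either 11 °C library or either 25 °C library nor without the filter (adjusted p up to 0.165). LOC_Os04g01230 was lower at 11 than at 13 °C (-0.68 ± 0.21, adjusted p = 0.0366), not without any 1 of the 11 and 13 °C libraries (adjusted p up to 0.191), and at 13 against 25 °C passed with the block (0.56, adjusted p = 0.00547; adjusted p = 0.0631 without it) and under quantile normalization. The other 3 mutase-like loci were not called, but passed with the block in 1 comparison each: LOC_Os05g04960 at 11 against 25 °C (-0.71, adjusted p = 0.0323; adjusted p = 0.0705 without it), LOC_Os11g04320 at 11 against 25 °C (0.57, adjusted p = 0.0267; adjusted p = 0.0796 without it) and LOC_Os11g31880 at 13 against 25 °C (0.69, adjusted p = 0.0227; adjusted p = 0.126 without it). The first was also called under both other scalings, the second without replicate 1 at 11 °C and the third without replicate 2 at 25 °C. LOC_Os11g04320 passed the filter through cold libraries alone, so that its direction was partly fixed by the filter.

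Serine has a source outside photorespiration, the phosphorylated pathway that begins with phosphoglycerate dehydrogenase in the plastid, and its 2 loci described as dehydrogenase 1 moved in opposite directions. LOC_Os04g55720 had 58.2 and 70.5 RPKM at 11 °C, 32.3 and 41.2 at 13 °C, and 9.19 and 8.58 RPKM at 25 °C. It rose 7.24-fold at 11 °C (2.72 ± 0.23, adjusted p = 6.86e-05) and 4.14-fold at 13 °C (1.93 ± 0.23, adjusted p = 0.000396). It was also higher at 11 than at 13 °C (0.79 ± 0.23, adjusted p = 0.0278), not without any 1 of the 11 and 13 °C libraries (adjusted p up to 0.182). LOC_Os06g44460 fell 6.81-fold at 11 °C (-2.41 ± 0.28, adjusted p = 0.000326) and 3.36-fold at 13 °C (-1.59 ± 0.28, adjusted p = 0.00286), from 17 and 20 RPKM at 25 °C to 2.03 and 3.4 RPKM at 11 °C and 4.64 and 6.37 RPKM at 13 °C. At 11 against 13 °C its difference of -0.82 ± 0.28 did not pass (adjusted p = 0.0561), but did with the block (adjusted p = 0.00286) and under TMM-type scaling (adjusted p = 0.012) and quantile normalization (adjusted p = 0.0122). Dehydrogenase 2 (LOC_Os08g34720) was not called at 5.76 to 10.5 RPKM.

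The serine hydroxymethyltransferases described by the numbers 4 and 7 are not the mitochondrial form. LOC_Os01g65410 (number 7) had 112 and 115 RPKM at 11 °C, 23.9 and 24.9 at 13 °C, and 20.1 and 17.2 RPKM at 25 °C. It stood high at 11 °C alone, 6.09-fold above 25 °C (2.55 ± 0.20, adjusted p = 5.77e-05) and 4.66-fold above 13 °C (2.17 ± 0.20, adjusted p = 0.000261). At 13 against 25 °C its difference of 0.37 ± 0.20 passed only with the block (adjusted p = 0.0397; adjusted p = 0.174 without it). LOC_Os11g26860 (number 4) had 78.4 and 86.3 RPKM at 11 °C, 205 and 198 at 13 °C, and 59.0 and 61.3 RPKM at 25 °C. It stood high at 13 °C, 3.35-fold above 25 °C (1.73 ± 0.20, adjusted p = 0.000357) and 2.44-fold above 11 °C (-1.28 ± 0.20 as 11 minus 13 °C, adjusted p = 0.00214), and with the block it also passed at 11 against 25 °C (0.44, adjusted p = 0.0203; adjusted p = 0.0948 without it).

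The second locus of number 4, LOC_Os12g22030, with 14.9 to 30.4 RPKM, rose at 13 °C (0.84 ± 0.21, adjusted p = 0.0124), not without replicate 2 at 13 °C or replicate 1 at 25 °C (adjusted p up to 0.0951). It was lower at 11 than at 13 °C (-0.63 ± 0.21, adjusted p = 0.0476). The call was lost without any 1 of the 6 libraries and with a pseudocount of 0.1 (adjusted p up to 0.24). The second locus of number 7, LOC_Os05g35440, with 6.46 to 14.8 RPKM, fell at 11 °C (-0.80 ± 0.24, adjusted p = 0.0261) and 13 °C (-0.81 ± 0.24, adjusted p = 0.0271). The first call was lost without any 1 of the 11 and 25 °C libraries (adjusted p up to 0.122), the second without replicate 1 at 13 °C or either 25 °C library (adjusted p up to 0.186).

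Among the rest, the steepest fall was that of LOC_Os05g39770, described as homolog 3 of the mitochondrial alanine:glyoxylate aminotransferase 2. It had 0.903 and 0.897 RPKM at 11 °C, 2.33 and 3.84 at 13 °C, and 32 and 48.8 RPKM at 25 °C, and both cold groups lay far below 25 °C. It fell 44.9-fold at 11 °C (-4.41 ± 0.30, adjusted p = 3.48e-05) and 13.1-fold at 13 °C (-3.34 ± 0.30, adjusted p = 0.000127). Its lower level at 11 than at 13 °C (-1.08 ± 0.30, adjusted p = 0.0266) was lost without either 11 °C library or replicate 2 at 13 °C and without the filter (adjusted p up to 0.166). The 2-phosphoglycerate kinase locus LOC_Os03g01250 had 1.53 and 1.83 RPKM at 11 °C, 4.26 and 4.8 at 13 °C, and 13.1 and 11.9 RPKM at 25 °C. It fell 7.45-fold at 11 °C (-2.33 ± 0.23, adjusted p = 0.000155) and 2.76-fold at 13 °C (-1.29 ± 0.23, adjusted p = 0.0031), and was lower at 11 than at 13 °C (-1.05 ± 0.23, adjusted p = 0.0107), not without replicate 1 at 11 °C or replicate 2 at 13 °C (adjusted p up to 0.0769).

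The cytoplasmic epimerase LOC_Os09g32810, at 8.36 to 18.4 RPKM, fell at 11 °C (-0.80 ± 0.24, adjusted p = 0.0252), not without either 11 °C library or replicate 2 at 25 °C (adjusted p up to 0.134). At 11 against 13 °C its difference of -0.70 ± 0.24 did not pass (adjusted p = 0.0533), but did with the block (adjusted p = 0.00763), under both other scalings and without either 25 °C library. Phosphoglycolate phosphatase 2 (LOC_Os09g08660), at 8.84 to 28.5 RPKM, was lower at 11 than at 13 °C (-1.34 ± 0.24, adjusted p = 0.00441) and than at 25 °C (-0.75 ± 0.24, adjusted p = 0.0337). The latter call was lost without either 11 °C library or replicate 2 at 25 °C and without the filter (adjusted p up to 0.147). At 13 against 25 °C its difference of 0.59 ± 0.24 did not pass (adjusted p = 0.0847), but did with the block (adjusted p = 0.00755) and under quantile normalization (adjusted p = 0.0374). Cytosolic phosphoglycerate kinase (LOC_Os02g07260), at 37.4 to 82.7 RPKM, was not called, but was with the block at 13 against 25 °C (0.69, adjusted p = 0.00307) and at 11 against 13 °C (-0.61, adjusted p = 0.00609). The former was also called without replicate 2 at 25 °C and the latter under TMM-type scaling. The second 2-phosphoglycerate kinase locus, LOC_Os07g28260, at 2.17 to 4.89 RPKM, and homolog 1 of the aminotransferase, LOC_Os03g07570, at 4.92 to 9.43 RPKM, were also called with the block. The former passed at 13 against 25 °C (0.60, adjusted p = 0.024; adjusted p = 0.0978 without it) and the latter at 11 against 13 °C (0.61, adjusted p = 0.0127; adjusted p = 0.0861 without it). Homolog 1 was also called under both other scalings, there and as lower at 13 than at 25 °C.

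**Figure D4:**
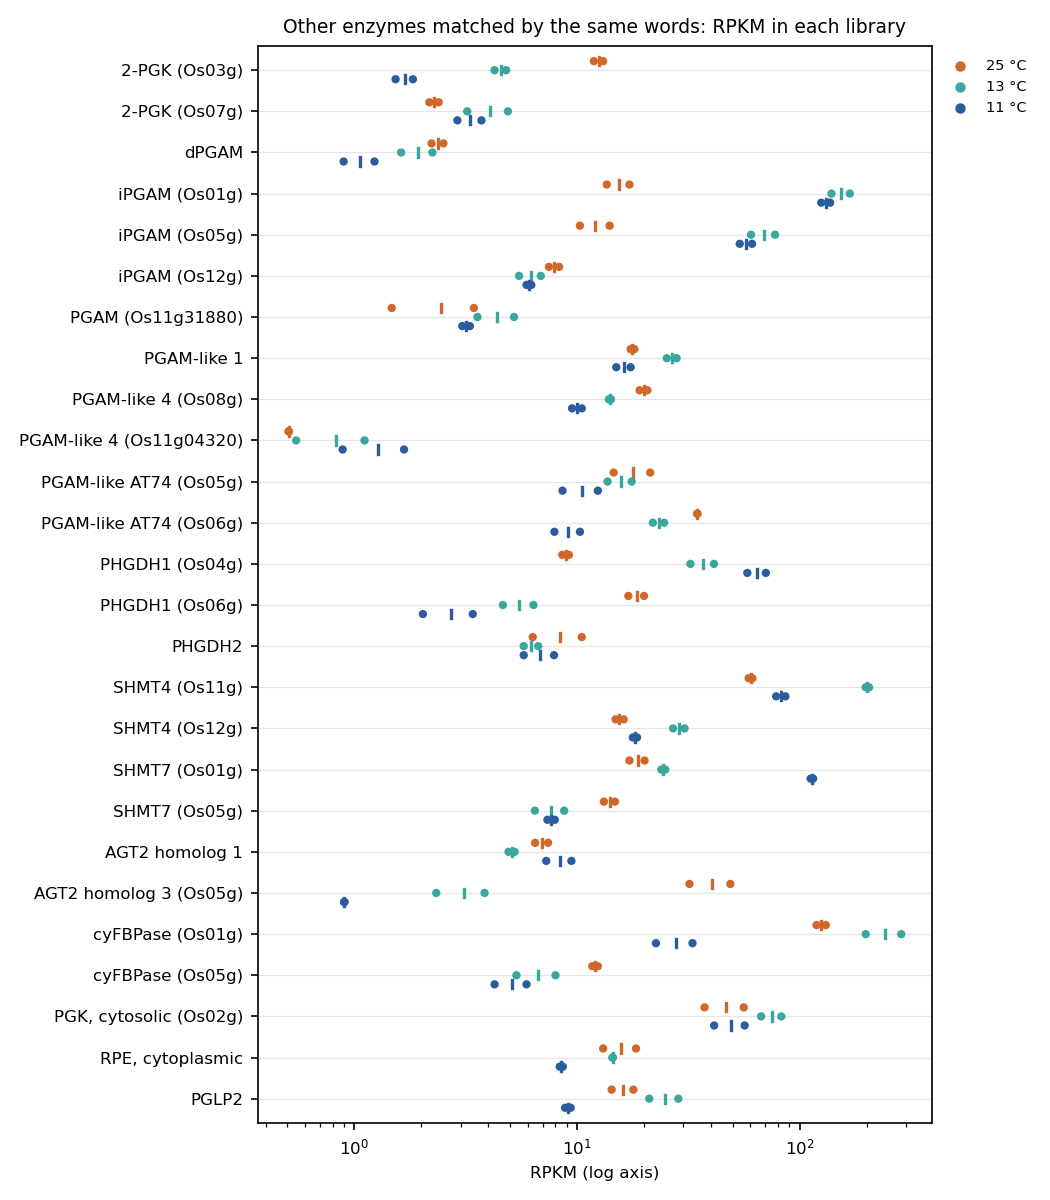
RPKM on a log axis for the 26 other enzymes, with 1 point per library and a short line at the mean of the 2 libraries of each temperature; PGAM is phosphoglycerate mutase (i cofactor-independent, d dependent), PHGDH phosphoglycerate dehydrogenase, AGT2 the alanine:glyoxylate aminotransferase and cyFBPase cytosolic fructose-1,6-bisphosphatase. The mutase LOC_Os01g60190 lies at 125 to 168 RPKM in the cold against 13.6 and 17.2 RPKM at 25 °C, and serine hydroxymethyltransferase LOC_Os01g65410 is high at 11 °C alone, at 112 and 115 RPKM.

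Summed over all 57 members, the level was 8988 and 8184 RPKM at 11 °C, 16089 and 18292 at 13 °C, and 21895 and 22961 RPKM at 25 °C, or 1.58 and 1.5%, 2.68 and 3.13%, and 3.74 and 3.98% of the RPKM sum of each library. A single gene, the aldolase LOC_Os11g07020, made up 46.8 to 72.5% of the Calvin cycle sum in each library. Without it the Calvin cycle sum was 1161 and 1143 RPKM at 11 °C, 3146 and 3882 at 13 °C, and 3088 and 4323 RPKM at 25 °C, so that 11 °C lay below the rest and 13 and 25 °C overlapped. The photorespiration sum was 4344 and 4402 RPKM at 11 °C, 8914 and 9895 at 13 °C, and 10120.2 and 9232 RPKM at 25 °C, with the same overlap. The sum over the other enzymes was highest at 13 °C, with 613 and 697 RPKM at 11 °C, 913 and 1098 at 13 °C, and 534 and 572 RPKM at 25 °C.

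**Figure D5:**
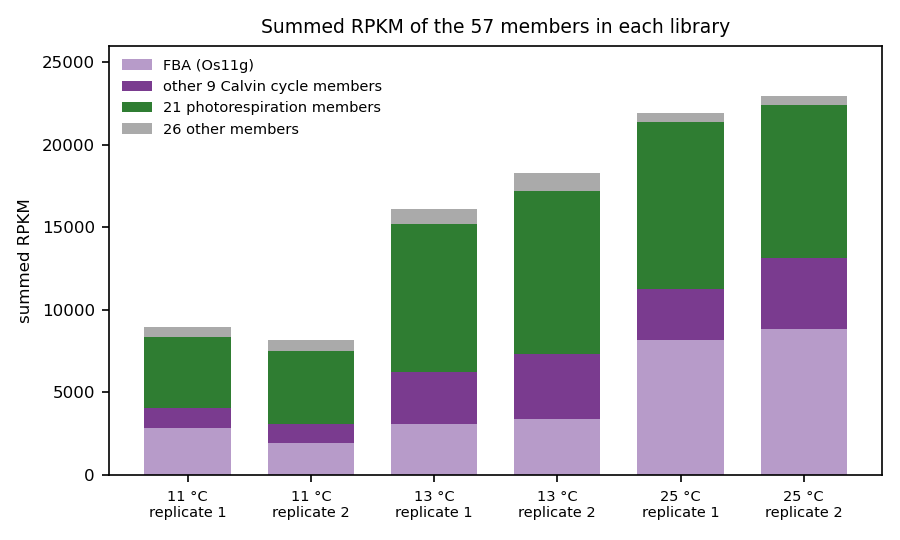
Stacked bars of summed RPKM in each of the 6 libraries, divided into the aldolase LOC_Os11g07020, the other 9 Calvin cycle members, the 21 photorespiration members and the 26 other enzymes. The bars reach 8988 and 8184 RPKM at 11 °C, 16089 and 18292 at 13 °C, and 21895 and 22961 RPKM at 25 °C, and most of the step from 13 to 25 °C lies in the aldolase.

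Further words matched 45 companion genes that the member words do not catch (Rubisco small subunits and activase, CP12, glyceraldehyde-3-phosphate dehydrogenase, carbonic anhydrases, catalases and others). These words also caught loci described as tonoplast dicarboxylate transporters or mitochondrial gamma carbonic anhydrases, so the set is not limited to the 2 pathways. The 45 companion genes had 20 falls, 4 rises and 21 not passed at 11 against 25 °C (median -0.53). At 13 against 25 °C 13 rose, 12 fell and 20 did not pass (median 0.25), a split that became 9 against 13 under quantile normalization, and at 11 against 13 °C 18 were lower, 5 were higher and 22 did not pass (median -0.58). The shares called were 53.3%, 55.6% and 51.1% in the order given, where 50.0%, 43.3% and 35.4% of all loci were called. The 13 rises at 13 °C became 7 or 4 without replicate 1 or 2 at 13 °C. The chloroplast glyceraldehyde-3-phosphate dehydrogenase A gene (LOC_Os04g38600), which carries out the reduction step after phosphoglycerate kinase, had 258 and 207 RPKM at 11 °C, 1516 and 1791 at 13 °C, and 1017 and 1348 RPKM at 25 °C. It was 7.11-fold lower at 11 than at 13 °C (-2.83 ± 0.28, adjusted p = 0.000319) and 5.09-fold lower than at 25 °C (-2.34 ± 0.28, adjusted p = 0.000326). The comparison of 13 with 25 °C did not pass (0.49 ± 0.28, adjusted p = 0.188).

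CP12-1 (LOC_Os01g19740), a small protein that binds phosphoribulokinase and glyceraldehyde-3-phosphate dehydrogenase into an inactive complex in the dark, rose at both low temperatures. It had 5107 and 5219.6 RPKM at 11 °C, 3389.9 and 4503 at 13 °C, and 112 and 195 RPKM at 25 °C. It rose 33.6-fold at 11 °C (5.12 ± 0.34, adjusted p = 3.28e-05) and 25.7-fold at 13 °C (4.71 ± 0.34, adjusted p = 4.99e-05), while 11 against 13 °C did not pass (0.40 ± 0.34, adjusted p = 0.4). At 25 °C it lay below phosphoribulokinase (1374 and 1827 RPKM), and at 11 and 13 °C above it. Phosphoribulokinase and the dehydrogenase A gene fell at 11 °C, and at 13 °C neither passed against 25 °C. CP12-2 (LOC_Os03g19380) was not called at 11 against 25 °C (-0.51 ± 0.31, adjusted p = 0.202) and was higher at 13 °C (1.34 ± 0.31, adjusted p = 0.00919). CP12-3 (LOC_Os08g40240) was lower at both (-2.20 ± 0.26, adjusted p = 0.000302, and -1.09 ± 0.26, adjusted p = 0.0101). Refits of those genes are not given.

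Rubisco activase (LOC_Os11g47970), which frees Rubisco of bound sugar phosphates, had 650.0 to 1015 RPKM at 11 °C, 4147 to 4905 at 13 °C and 27017 to 36629 at 25 °C. It fell by 5.27 ± 0.38 at 11 °C (adjusted p = 4.09e-05) and by 2.80 ± 0.38 at 13 °C (adjusted p = 0.000777), and was lower at 11 than at 13 °C (-2.47 ± 0.38, adjusted p = 0.00216), the last not without the filter (adjusted p = 0.0506). Of 4 Rubisco small subunit genes, 3 had their highest means at 13 °C, and the scarce LOC_Os02g05830 its lowest, at 1.48 and 2.0 RPKM against 3.23 and 5.21 at 25 °C. LOC_Os12g19470 had 228 and 223 RPKM at 11 °C, 1393 and 1480.5 at 13 °C, and 361 and 624 RPKM at 25 °C, and rose at 13 °C (1.59 ± 0.30, adjusted p = 0.00363). It fell at 11 against 25 °C (-1.07 ± 0.30, adjusted p = 0.0187), not without either 11 °C library, without the filter or under quantile normalization (adjusted p up to 0.1). LOC_Os12g19381 had 918 and 921, 4224 and 4299, and 1711 and 2815 RPKM in the same order. Its fall at 11 against 13 °C (-2.21 ± 0.33, adjusted p = 0.00187) held, that at 11 against 25 °C (-1.25 ± 0.33, adjusted p = 0.0143) did not without either 11 °C library, without the filter or under quantile normalization (adjusted p up to 0.0996).

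The rise of LOC_Os12g19381 at 13 against 25 °C (0.96 ± 0.33, adjusted p = 0.0469) was lost with the replicate block (adjusted p = 0.0583), without the filter, under both other scalings and without any 1 library except replicate 2 at 25 °C (adjusted p up to 0.31). LOC_Os12g17600 had 4757 and 3489.7 RPKM at 11 °C, 10523 and 9566 at 13 °C, and 3224 and 5236 RPKM at 25 °C. Its rise at 13 against 25 °C (1.29 ± 0.39, adjusted p = 0.0297) and its lower level at 11 than at 13 °C (-1.30 ± 0.39, adjusted p = 0.0346) were both lost with the block (adjusted p = 0.0866 and adjusted p = 0.0882), without the filter, under both other scalings and without any 1 of the 11 and 13 °C libraries (adjusted p up to 0.24 and 0.265). Reads of these near-identical small subunit genes may be shared between loci.

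Chloroplast carbonic anhydrase (LOC_Os01g45274), which interconverts carbon dioxide and bicarbonate, had 129 and 148 RPKM at 11 °C, 1074 and 1173 at 13 °C, and 357 and 663 RPKM at 25 °C. It was 8.12-fold lower at 11 than at 13 °C (-3.01 ± 0.32, adjusted p = 0.000429) and 3.68-fold lower than at 25 °C (-1.81 ± 0.32, adjusted p = 0.00227). Its rise at 13 against 25 °C (1.21 ± 0.32, adjusted p = 0.0169) was lost without either 13 °C library and without the filter (adjusted p up to 0.0872). Catalase-1 (LOC_Os03g03910), which breaks down hydrogen peroxide of the kind glycolate oxidase makes, had 643 and 764 RPKM at 11 °C, 1059.6 and 1240.2 at 13 °C, and 1624 and 1677 RPKM at 25 °C. It fell at 11 against 25 °C (-1.23 ± 0.26, adjusted p = 0.00551), not without replicate 1 at 11 °C or under quantile normalization (adjusted p up to 0.13), while 13 against 25 °C (-0.53 ± 0.26, adjusted p = 0.145) and 11 against 13 °C (-0.71 ± 0.26, adjusted p = 0.0691) did not pass, the latter except without either 25 °C library (lowest adjusted p = 0.0326).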

How the data were processed

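Total RNA of above-ground seedling tissue was sequenced in 6 libraries, 2 per temperature, grouped by the labels. TopHat2 2.0.12 was the aligner per the submitters' processing notes. The values deposited by the authors are RPKM; not given in the sources used here are build, annotation, counting program and strand handling. Coordinates are those of the deposited table. Library totals were estimated from the spacing of low RPKM values.

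The 19438 loci that reached an RPKM of 1 in 2 or more libraries were analysed as log2(RPKM + 1) with limma 3.58.1 in R 4.3.3, all 6 libraries in 1 model with a mean-variance trend, 3 two-sided contrasts and Benjamini-Hochberg adjustment; a gene was called at an adjusted p below 0.05. Read numbers per gene are not in the table, so a count model was not used. The model was tested on simulated libraries drawn independently of each other. That test does not cover replicates that deviate together.

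Same-numbered replicates deviated together from their group means (correlations over 19438 loci of 0.713 for 11 and 13 °C, 0.610 for 11 and 25 °C and 0.669 for 13 and 25 °C). The numbers come from the labels and may pair the libraries, so a fit with the replicate number as a block was an alternative. Counts and p-values are from the fit without the block unless it is named, so a comparison that did not pass may pass with it. With the block 71.9% of members were called at 11 against 25 °C, 63.2% at 13 against 25 °C and 70.2% at 11 against 13 °C. Of all loci 69.3%, 62.9% and 58.4% were called with it, in the same order. Other alternatives were a pseudocount of 0.1, no filter, TMM-type scaling, quantile normalization and leaving out each library. With 1 library left in a group, it was assumed to vary like the other groups.

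Members, roles, companion genes and markers were chosen with earlier results of these data known. Values in every library are given for members whose mean RPKM reached 100 at any temperature, that were called in all 3 comparisons or called in opposite directions. The 8 companion genes given in full have the highest mean RPKM, and further CP12 and small subunit genes are named beside them.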

Additional observations from a re-analysis of the deposited data

Results flagged for a closer look

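The difference from 25 °C was called with opposite signs at 11 and 13 °C for 2 members (3.51%), as for 1.68% of all loci. The comparison of 11 with 13 °C is no independent check, since these members were picked for opposite calls against the same 25 °C libraries. Cytosolic fructose-1,6-bisphosphatase (LOC_Os01g64660) was lower at 11 °C and higher at 13 °C than at 25 °C, and its log2 difference between 11 and 13 °C was -3.08 (limma, adjusted p = 0.000232). Chloroplast phosphoglycerate kinase (LOC_Os05g41640) had the same order, with a log2 difference between 11 and 13 °C of -2.10 (limma, adjusted p = 0.000488). For each gene the smaller of the 2 differences from 25 °C lost its call when some single libraries were left out. With 2 libraries per temperature no library could be judged an outlier within its group.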

How the results depend on the processing

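No member changed direction with its call under any alternative tried. Leaving out 1 library moved the members called lower at 11 against 25 °C between 12 and 25 and higher between 7 and 9, those higher at 13 against 25 °C between 11 and 16 and lower between 5 and 8, and those lower at 11 against 13 °C between 15 and 28 and higher between 1 and 3. Over all loci the same refits gave 3726 to 5320 higher and 2822 to 3907 lower at 11 against 25 °C, 3318 to 4903 and 2015 to 3070 at 13 against 25 °C, and 1795 to 3379 and 1834 to 3597 at 11 against 13 °C. Of the members' calls, 17 of 34, 16 of 22 and 16 of 29 held in all 6 such refits. Without the filter 17 members fell at 11 against 25 °C. With the replicate block 24 members rose at 13 against 25 °C and 7 were higher at 11 than at 13 °C, and over all loci 5099 were lower at 13 than at 25 °C and 5570 higher and 5781 lower at 11 than at 13 °C. Over the members' 171 comparisons the block added 32 calls, lost none and changed no other call. TMM-type scaling moved the median of all loci from 0.13 to 0.00 at 11 °C and from 0.12 to -0.02 at 13 °C. It moved the members' medians from -0.68 to -0.81 and from 0.26 to 0.09. Under quantile normalization the members' median moved to -0.47 at 11 °C and stayed at 0.26 at 13 °C. Over all loci the calls at 13 against 25 °C split 5115 higher to 3299 lower, and 4895 to 4921 under quantile normalization. The cause of these changes was not tested. Depth limits the lowest values, such as phosphoglycerate kinase 1 at 0.127 and 0.317 RPKM at 25 °C.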
